A study of Rattus norvegicus with 8 samples.

Results

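The genes described here are 8 antioxidant enzymes and cofactors of the rat: the superoxide dismutases Sod1, Sod2 and Sod3, catalase (Cat), glutathione peroxidase 1 (Gpx1), peroxiredoxin 1 (Prdx1), thioredoxin (Txn1) and thioredoxin reductase 1 (Txnrd1). Every probe set of the array whose annotation named one of these symbols and no other was taken, which gave 15 of 8799 probe sets and 7 of the 8 genes; no such probe set was found for Txn1. They were measured in cultured pulmonary artery smooth muscle cells grown from vessel explants of adult Sprague-Dawley rats after the endothelium and the adventitia had been stripped off. The 4 groups were untreated cells and cells exposed to S-nitrosoglutathione (GSNO) for 1 h, 2 h or 4 h, with 2 arrays each, numbered 1 and 2. The concentration of GSNO is given as 100 μmol/L in the series' design text and as 100 mmol/L in the treatment protocol, and neither is taken as the fact here. That text speaks of 2 independent cell preparations without tying the array numbers to them, so the p-values may measure spread between arrays rather than between cultures.

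GSNO is the S-nitrosothiol of glutathione and releases nitric oxide, which reacts with superoxide to form peroxynitrite. Superoxide dismutases turn superoxide into hydrogen peroxide: Sod1 in the cytosol, Sod2 in the mitochondrial matrix and Sod3 outside the cell, where in arteries it is made largely by smooth muscle. Catalase, Gpx1 and Prdx1 then remove the hydrogen peroxide; Prdx1 is reduced again by thioredoxin, and thioredoxin by the selenoenzyme Txnrd1 at the cost of NADPH.

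At 4 h of GSNO, Sod2 was 3.55-fold above control, the Sod3 probe sets were 1.97-fold and 2.23-fold above it, and the Txnrd1 probe sets 4.41-fold and 2.60-fold. Sod2 passed the test over all probe sets without a term for the array number; Sod3 and Txnrd1 passed it when the array number was a term of the fit (a replicate block). Txnrd1 was already higher at 2 h in that fit, whereas Sod2 at 2 h differed from control by 0.29 ± 0.28 (log2, SE) and did not pass. Sod1, catalase, Gpx1 and Prdx1 passed in neither fit at any time.

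The signals are the deposited intensity values, 1 per probe set and array, on a linear scale in arbitrary units, and levels are not compared between probe sets because each has its own probes. Fold changes and tests use log2 of the signal plus an offset of 21.1 units in limma, so a fold change is on the signal + offset scale and understates the change of dim probe sets. A probe set was tested when it reached the 40th percentile of its array on at least 2 of the 8 arrays. This held for 13 of the 15 member probe sets, each of them on all 8 arrays, and for 5877 of 8740 in all. The 2 left out were the Cat probe set rc_AA926149_at, with signals of 7.16 to 78.6, and the Gpx1 probe set M21210_i_at, with 8.27 to 23.4. All tests are two-sided, with Benjamini-Hochberg adjusted p-values across the 5877 and 0.05 as the threshold.

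The deposited scaling fixes the trimmed mean of signal, at 500.7 to 501.0 on the 8 arrays. The 4 h array numbered 1 had the lowest median signal, 100.04, against 119 to 141 on the other 7, and the lowest 40th percentile, 57.2, against 65.9 to 91.0. The arrays numbered 1 and those numbered 2 were scanned on different days with different fluidics protocols and chip lots, per the experiment records, and deviations from the group means correlated between 0.387 and 0.569 among arrays of the same number. The fit with the replicate block is therefore given beside the plain one. No other array shared the chip lot of the 1 h array numbered 1, so within that number the lot and 1 h of GSNO cannot be told apart. Within the arrays numbered 1, the records also place control and 2 h in one named experiment and 1 h and 4 h in another, so there the experiment and the difference of 4 h from control or from 2 h cannot be told apart. The 4 arrays numbered 2 share a single experiment.

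Marker sums are given for the arrays numbered 1 and 2 in that order. They take in every marker of a list on the array, kept or not, with 1 probe set per gene. Of 10 smooth muscle markers on the array, 9 were kept. The summed signal of the 10 was 85543 and 54163 at 4 h, against 90738 and 62981 in control. Of these Myh11, the smooth muscle myosin heavy chain, was called lower at 4 h with the replicate block (log2 fold change -0.60, limma adjusted p = 0.0434, against 0.612 without it). Of 6 endothelial markers, Pecam1, Nos3 and Flt1 were kept and Vwf, Kdr and Sele were not. The sum over all 6 was 319 and 547 at 4 h, against 686 and 509 in control. All 7 fibroblast and adventitia markers were kept, with sums of 26487 and 21864 at 4 h, against 27927 and 32967 in control. Of these Dcn, the proteoglycan decorin, was called lower at 4 h (log2 fold change -2.42, limma adjusted p = 0.0452, and 0.00477 with the block). The fall was not steady over time: Dcn was at -2.30 at 1 h (limma adjusted p = 0.130, and 0.0172 with the block) and at 0.37 at 2 h. The 7 cardiac and skeletal muscle markers on the array, 6 of them kept, summed to 856 and 453 at 4 h, against 1267 and 664 in control. The 6 macrophage and leukocyte markers on the array, 3 of them kept, summed to 455 and 719 at 4 h, against 573 and 789 in control. For the 7 lung epithelium markers, 3 of them kept, the sums were 499 and 363, against 702 and 456. The endothelial sum moved in opposite directions on the 2 array numbers, and the other sums were lower at 4 h on both. In a bulk sample, fewer cells of a type and less RNA per cell cannot be told apart, and the part of these other cells in the results was not tested.

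The promoters of Sod2, Txnrd1 and Prdx1 are shown because Txnrd1 and Prdx1 are textbook targets of the transcription factor NRF2, which binds antioxidant response elements, and Sod2 is one of NF-kB. RefSeq promoter windows of GRCr8 were found for 7 of the 8 genes, 8 windows in all, of which Txnrd1 has 2. Each was searched on both strands, over 250 bases before and 50 after the start site, for the antioxidant response element core TGACNNNGC, the AP-1 element TGANTCA, the GC box GGGCGG and the cAMP response element TGACGTCA. The 250 bases before the start are printed 5′ to 3′ on the gene's strand, with matches in capitals.
Sod2, chr1:50050169-50050418, minus strand: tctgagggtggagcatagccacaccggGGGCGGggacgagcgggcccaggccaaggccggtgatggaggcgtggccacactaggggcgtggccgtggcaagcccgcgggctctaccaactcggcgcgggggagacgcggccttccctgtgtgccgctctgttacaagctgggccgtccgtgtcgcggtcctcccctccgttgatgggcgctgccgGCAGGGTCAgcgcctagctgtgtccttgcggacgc
Txnrd1 window 1, chr7:22764852-22765101, minus strand: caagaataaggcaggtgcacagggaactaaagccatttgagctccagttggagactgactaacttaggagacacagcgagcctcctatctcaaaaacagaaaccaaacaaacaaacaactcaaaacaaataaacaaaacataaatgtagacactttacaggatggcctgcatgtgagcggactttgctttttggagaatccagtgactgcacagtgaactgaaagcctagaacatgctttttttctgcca
Txnrd1 window 2, chr7:22755905-22756154, minus strand: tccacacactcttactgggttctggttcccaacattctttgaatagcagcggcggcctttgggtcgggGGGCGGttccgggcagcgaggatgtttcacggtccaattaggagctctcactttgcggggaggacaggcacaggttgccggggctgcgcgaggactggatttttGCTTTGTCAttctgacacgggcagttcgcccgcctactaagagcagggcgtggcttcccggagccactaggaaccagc
Prdx1, chr5:135383656-135383905, plus strand: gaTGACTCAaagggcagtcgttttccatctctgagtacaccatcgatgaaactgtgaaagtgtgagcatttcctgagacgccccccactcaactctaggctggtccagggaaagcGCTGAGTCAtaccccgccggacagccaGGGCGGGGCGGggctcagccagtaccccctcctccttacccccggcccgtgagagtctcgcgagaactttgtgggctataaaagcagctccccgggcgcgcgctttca

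The antioxidant response element core was matched once in Sod2 (TGACCCTGC on the opposite strand, bases -35 to -27 from the start), once in the second Txnrd1 window (TGACAAAGC on the opposite strand, bases -78 to -70) and once in Prdx1 (TGACTCAGC on the opposite strand, bases -135 to -127). The match in Prdx1 overlaps an AP-1 match at bases -133 to -127, and Prdx1 holds another AP-1 match at bases -248 to -242. Sod1, Cat, Gpx1, Txn1 and the first Txnrd1 window held no match to the core. Of 33469 rat promoters of the same length, 12.1% held the core, 7.33% the AP-1 element, 33.1% the GC box and 1.83% the cAMP response element. GC boxes were matched in Sod1, Sod2, Gpx1, Prdx1, Txn1 and the second Txnrd1 window, and the cAMP response element in none of the 8. These matches describe letters in the windows and say nothing of which factor was bound. The NF-kB site was not among the motifs searched, in Sod2 or in any other window.

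**Figure D1:**
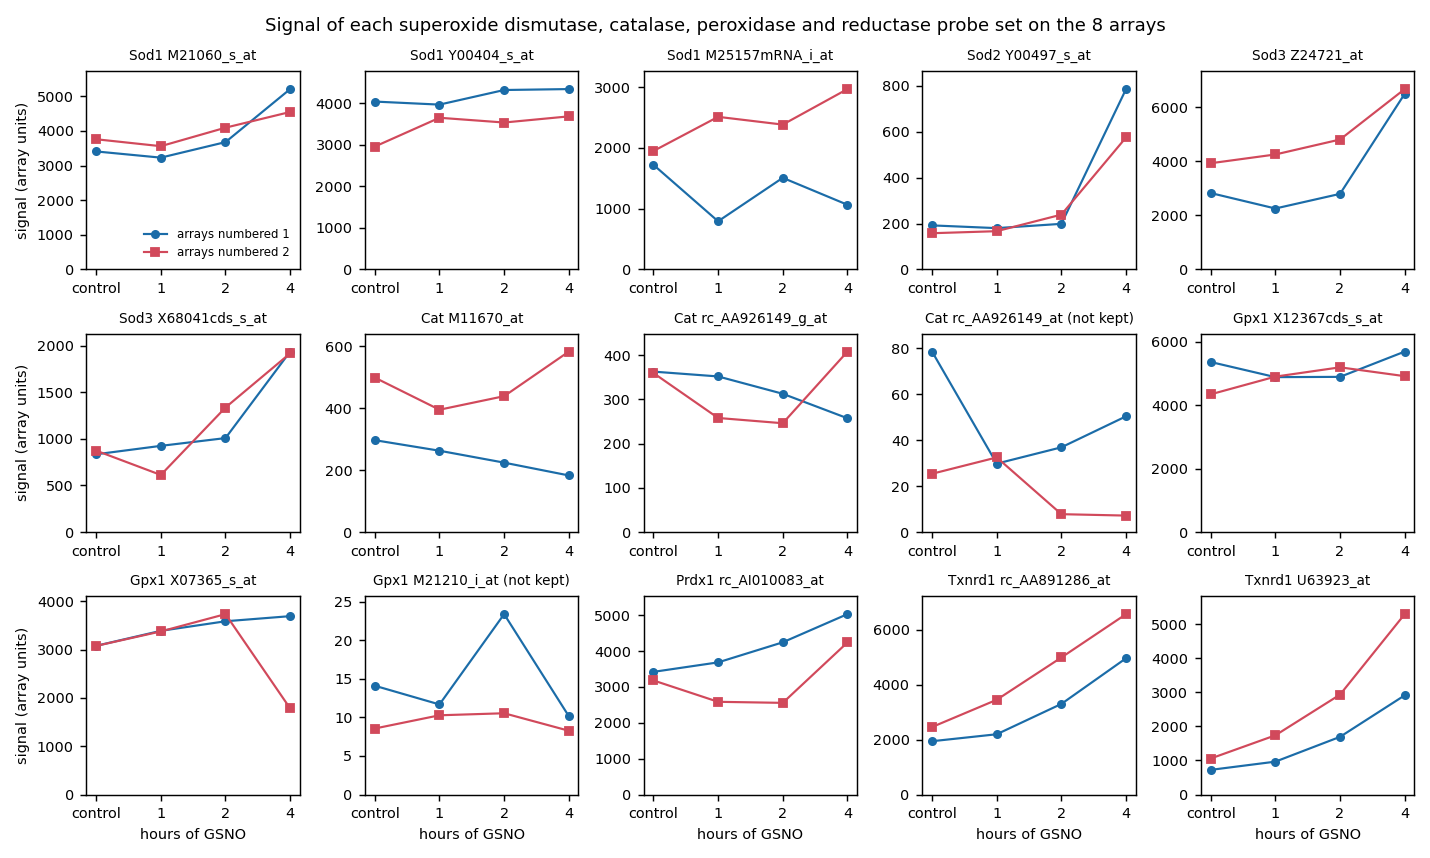
Signal of the 15 probe sets (linear scale from 0, array units) against hours of GSNO, with control at the left; circles and squares join the arrays numbered 1 and 2. Sod2, both Sod3 and both Txnrd1 probe sets end above control on both array numbers. So do Prdx1, Sod1 by M21060_s_at and Y00404_s_at, and Gpx1 by X12367cds_s_at, which passed in neither fit. The kept Cat lines part at 4 h and 1 Gpx1 line drops on the second array.

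Sod2, the manganese enzyme of mitochondria, was measured by 1 probe set, Y00497_s_at. Its signal was 192 and 158 in control cells, 180.3 and 167 at 1 h, 199 and 239 at 2 h, and 786 and 576 at 4 h of GSNO, for arrays numbered 1 and 2 in that order. Both 4 h arrays lay above all 6 others, while the 1 h signals lay between the control signals. At 4 h the log2 fold change against control was 1.83 ± 0.28 (SE, n = 2 arrays each; limma adjusted p = 0.0209, and 0.00187 with the replicate block). Within the arrays numbered 1 it was 1.92, and within those numbered 2 it was 1.74. At 2 h the log2 difference from control was 0.29 ± 0.28, with both 2 h arrays above both control arrays. At 1 h it was -0.01 ± 0.28, and its sign turned with a common median scaling.

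In the order of its levels, Sod2 at 4 h stood apart and the other groups did not. The log2 difference of 4 h over 1 h was 1.83 ± 0.28 (limma adjusted p = 0.0407, and 0.00312 with the block). That of 4 h over 2 h was 1.54 ± 0.28 and passed with the block alone (limma adjusted p = 0.0402, against 0.421 without it). Leaving out any 1 of the 8 arrays ended the unblocked call at 4 h over 1 h (adjusted p values up to 0.261), and the blocked call at 4 h over 2 h held only without the 4 h array numbered 2. The experiment block ended that call too (log2 difference 1.41, limma adjusted p = 0.263). Control, 1 h and 2 h did not part beyond their spread. The 2 arrays a group set a limit here: without the block, leaving out either control array or either 4 h array put the 4 h adjusted p above the threshold, up to 0.137, with log2 fold changes of 1.61 to 2.05. With the block every such fit kept it, at adjusted p values up to 0.0263.

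Sod3, the secreted copper-zinc enzyme that binds the extracellular matrix, was measured by 2 probe sets. Z24721_at gave 2827 and 3929.5 in control cells, 2255 and 4253 at 1 h, 2797 and 4807 at 2 h, and 6497 and 6672 at 4 h. X68041cds_s_at gave 834 and 873 in control cells, 924 and 612 at 1 h, 1008 and 1336 at 2 h, and 1936 and 1917 at 4 h. In both probe sets the 4 h arrays lay above all other arrays and were close to each other, and the 1 h arrays lay on both sides of control.

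The 4 h log2 fold change was 0.98 ± 0.38 (SE) by Z24721_at and 1.16 ± 0.27 by X68041cds_s_at, with n = 2 arrays in each group. Without the block neither passed (limma adjusted p = 0.366 and 0.0928), and with it both did (limma adjusted p = 0.0179 and 0.0126). Within the arrays numbered 1 both probe sets gave 1.19; within those numbered 2 they gave 0.76 and 1.12. Leaving out either control array ended both calls in the fit with the block, and leaving out the 4 h array numbered 1 ended that of Z24721_at (adjusted p values up to 0.128 and 0.119). A block for the 3 experiments named in the records also ended both (adjusted p = 0.174 and 0.139). At 2 h Z24721_at differed from control by 0.14 ± 0.38 and X68041cds_s_at by 0.43 ± 0.27, and neither passed with or without the block.

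Sod1, the copper-zinc enzyme of the cytosol, was measured by 3 kept probe sets, and none passed. M21060_s_at gave 3409 and 3761 in control cells, 3230.1 and 3561 at 1 h, 3679 and 4096 at 2 h, and 5210.3 and 4549 at 4 h. Its 4 h arrays lay above all others, yet the log2 fold change of 0.44 ± 0.22 missed the threshold (limma adjusted p = 0.537, and 0.144 with the block; 95% interval -0.07 to 0.95 without it). Y00404_s_at had 4338 and 3681 at 4 h, against 4037 and 2955 in control, and these overlap (log2 fold change 0.21 ± 0.25). M25157mRNA_i_at was 1065 and 2968 at 4 h, against 1722 and 1949 in control. Its log2 change was -0.68 on arrays numbered 1 and 0.60 on arrays numbered 2, and its sign turned with a common median scaling. The 3 probe sets of Sod1 thus did not follow one another: after the mean of each array number was taken off, the correlation of M21060_s_at over the 8 arrays was 0.43 with Y00404_s_at and 0.06 with M25157mRNA_i_at. The array maker's suffix _s_at marks probes that can match more than 1 transcript, so signal from near-identical copies cannot be told apart from that of the gene. The only Sod2 probe set, X68041cds_s_at of Sod3 and both kept Gpx1 probe sets carry the same suffix and the same limit.

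Catalase, the peroxisomal enzyme that splits hydrogen peroxide, gave 183 and 582 at 4 h by M11670_at, against 297 and 498 in control cells. At 1 h it gave 262 and 395, and at 2 h 224 and 439. The arrays numbered 1 were lower at each later time and the 4 h array numbered 2 was the highest of all, so the groups overlap. By rc_AA926149_g_at the signals were 352 and 258 at 1 h, 312 and 246 at 2 h, and 257 and 408 at 4 h, against 362 and 359 in control. Both arrays lay below both control arrays at 1 h and at 2 h, and the 4 h arrays lay on both sides. The 4 h log2 fold changes were -0.21 ± 0.55 and -0.15 ± 0.31 (limma adjusted p = 0.934 and 0.915; 0.695 and 0.805 with the block). The second changed its sign with a common median scaling.

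Gpx1, the selenium-dependent peroxidase that uses glutathione, gave 5688 and 4913 at 4 h by X12367cds_s_at, against 5359.7 and 4341 in control. At 1 h it gave 4883 and 4899 and at 2 h 4891 and 5192. X07365_s_at gave 3078 and 3077 in control, 3389 and 3376 at 1 h, 3587 and 3735 at 2 h, and 3693 and 1782 at 4 h. On this probe set both 1 h and both 2 h arrays lay above both control arrays, and the 4 h array numbered 2 was the lowest of the 8. The 4 h log2 fold changes were 0.13 ± 0.23 and -0.26 ± 0.33 (limma adjusted p = 0.888 and 0.829). For X07365_s_at that change was 0.26 on arrays numbered 1 and -0.78 on arrays numbered 2. With the block and without the 4 h array numbered 1 it was called lower, at a log2 fold change of -0.79 (limma adjusted p = 0.0359), a call that rests on the lone 4 h array. The correlation between the 2 probe sets over the 8 arrays, after the mean of each array number was taken off, was 0.07.

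Prdx1, a peroxiredoxin that uses thioredoxin, was measured by rc_AI010083_at. It gave 3422 and 3183 in control, 3686 and 2587 at 1 h, 4246 and 2557 at 2 h, and 5033 and 4242 at 4 h. Both 4 h arrays lay above both control arrays, whereas at 1 h and 2 h the array numbered 1 was above them and the array numbered 2 below. The 4 h log2 fold change of 0.48 ± 0.31 did not pass (limma adjusted p = 0.630, and 0.161 with the block), with a 95% interval of -0.23 to 1.19 without the block and 0.08 to 0.89 with it.

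Txnrd1, the reductase that keeps thioredoxin reduced, was measured by U63923_at and rc_AA891286_at. U63923_at gave 724 and 1058 in control cells, 966 and 1739 at 1 h, 1694 and 2934 at 2 h, and 2913 and 5298 at 4 h. By rc_AA891286_at the signals were 1944 and 2461 in control, 2197 and 3454 at 1 h, 3303 and 4996 at 2 h, and 4968 and 6576 at 4 h. On each array number the order was the same in both probe sets, with control lowest, then 1 h, 2 h and 4 h, and the arrays numbered 2 were the higher at every time.

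At 4 h the log2 fold change was 2.14 ± 0.43 (SE) by U63923_at, with 1.98 within the arrays numbered 1 and 2.30 within those numbered 2. It missed the threshold without the block and passed with it (limma adjusted p = 0.0609 and 5.0e-05; n = 2 arrays each); with a common median scaling it passed without the block too (limma adjusted p = 0.0386). By rc_AA891286_at it was 1.38 ± 0.33, with 1.34 and 1.41 within the array numbers (limma adjusted p = 0.0947 without the block and 4.97e-04 with it). At 2 h the log2 fold changes were 1.33 ± 0.43 and 0.89 ± 0.33. They passed with the block alone (limma adjusted p = 0.00131 and 0.0113, against 0.462 and 0.620 without it). At 1 h they were 0.56 ± 0.43 and 0.33 ± 0.33 and passed in neither fit.

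Between neighbouring times the Txnrd1 levels did not part beyond the threshold. With the block, 4 h over 1 h passed in both probe sets (log2 differences of 1.58 and 1.05, limma adjusted p = 8.62e-04 and 0.00452), and 4 h over 2 h in neither (0.81 and 0.49, limma adjusted p = 0.0748 and 0.231). With the block, both 4 h calls held without any 1 of the 8 arrays, at adjusted p values up to 8.35e-04 for U63923_at and 0.00885 for rc_AA891286_at. The 2 h call of rc_AA891286_at was lost without the control array numbered 2, without either 2 h array, and with the block under a common median scaling. The correlation between the 2 probe sets over the 8 arrays, after the mean of each array number was taken off, was 0.99, the highest of any pair among the 13.

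**Figure D2:**
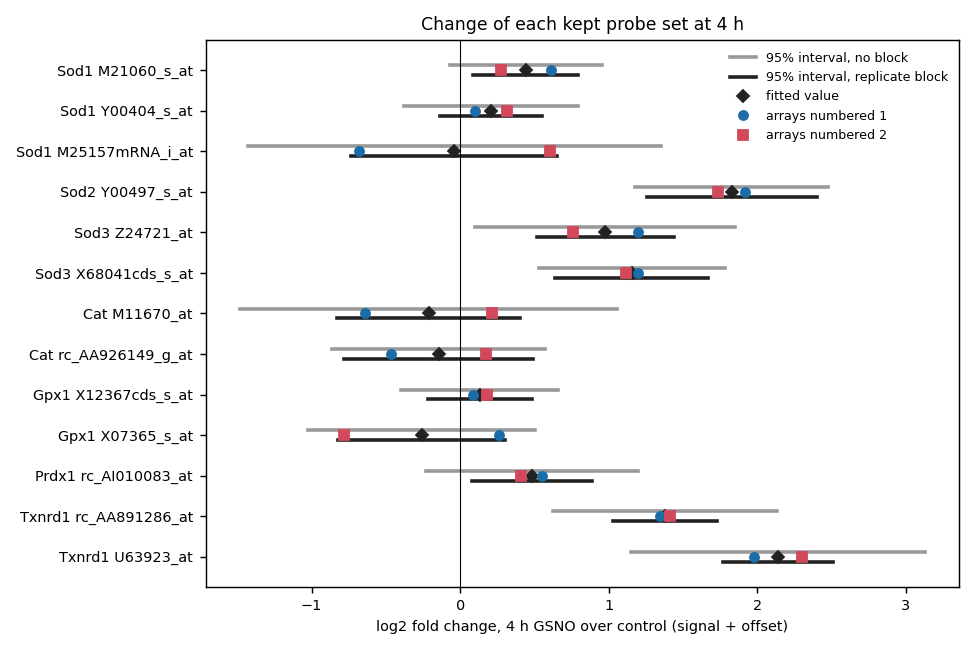
Log2 fold change of 4 h GSNO over control for the 13 kept probe sets; diamonds are the fitted values, circles and squares the change within the arrays numbered 1 and 2, and bars the 95% intervals without (grey) and with (black) the replicate block. Sod2 at 1.83, Sod3 at 0.98 and 1.16, and Txnrd1 at 1.38 and 2.14 have both points and both intervals above 0.

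Counted over the 13 probe sets at 4 h, 1 was called higher without the block, where 1.53% of all 5877 were called in either direction and 0.953% as higher. With the block 5 were called higher, where 7.93% of all were called and 4.25% as higher. At 2 h none was called without the block, where 0.97% of all were called and 0.783% as higher, and 2 were called higher with it, where 3.16% were called and 2.19% as higher. The unadjusted limma p was under 0.05 for 2 of the 13 in each fit, where it was for 6.13% of all without the block and 12.1% with it. At 1 h none was called in either fit, where 0.527% of all were called without the block (0.493% as higher) and 1.34% with it (1.14% as higher). The unadjusted limma p was under 0.05 for 0 without the block and 1 with it, where it was for 3.01% and 5.73% of all. No member was called lower at any time against control in either fit. Limma's F test over the 3 times called 1 member, Sod2, without the block (1.14% of all) and 5 with it (5.94%), and the call without the block was lost when any 1 array was left out.

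Both 4 h arrays lay above both control arrays for 7 of the 13 probe sets, where 13.4% of all probe sets did, and below them for 0, where 27.5% did. At 2 h the counts were 5 above (12.9%) and 1 below (17%), and at 1 h 1 above (10.1%) and 1 below (13%). The members' median log2 fold change at 4 h was 0.44, against -0.16 over all kept probe sets. With the arrays scaled to a common median these became 0.66 and 0.04, so the scaling shifts every 4 h value by about 0.20. That scaling also moved the split of all calls at 4 h, which was 56 higher and 34 lower with the deposited scaling and 82 higher and 21 lower with the common median; with the block it was 250 and 216 (deposited scaling), and 295 and 118 (common median). The 13 probe sets belong to 7 genes and were chosen with earlier results in view, so these counts describe them and are no test.

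The difference between times was called for 1 member at 4 h over 1 h without the block, where 0.476% of all were called and 0.204% as higher, and for 5 with it, where 5.1% were called and 2.65% as higher. At 4 h over 2 h it was called for none without the block (0% of all) and for 1, Sod2, with it, where 0.544% were called and 0.204% as higher. At 2 h over 1 h none was called (0% and 0.034%). The unadjusted limma p for 4 h over 2 h was under 0.05 for 2 members without the block and 6 with it, where it was for 5.62% and 12.8% of all. For 2 h over 1 h it was for 0 and 3, where it was for 2.79% and 7.33% of all. Comparisons against the same control arrays share those arrays and are not independent.

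The likeness of other genes to the called members was measured by the correlation of log2 values over the 8 arrays, after the mean of each array number was taken off, across the kept genes with 1 symbol. The arrays share scaling and the same 4 groups, so this describes time courses of like shape. Nearest to Sod2 were Ndrg4 (0.98), Rab10 (0.97) and Scd2 (0.97); Ndrg4 had 973 and 1014 at 4 h, against 546 and 584 in control. Nearest to Sod3 by Z24721_at were Prkce (0.99), Prph (0.98) and Sod1 by M21060_s_at (0.97). Prph had 152 and 69.9 at 4 h, against 37.6 and 42.6 in control, and met the filter percentile on the 4 h arrays alone. A high level at 4 h was thus a condition of its being kept, and its likeness to Sod3 is in part built in by the filter. Nearest to Txnrd1 by rc_AA891286_at were Slc16a1 (0.98), a monocarboxylate transporter, Fgfr1 (0.98), a fibroblast growth factor receptor, and Gpx4 (0.98), the peroxidase of lipid hydroperoxides. Slc16a1 had 2017 and 3283 at 4 h, against 315 and 459.9 in control. Among the members, Sod2 and Sod3 correlated at 0.96 and 0.91, and Sod2 and Txnrd1 at 0.87 in both Txnrd1 probe sets.

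Other enzymes of peroxide and thiol metabolism were taken as a list of 35 genes, of which 17 were on the array and 14 kept. None passed without the block at 1 h, 2 h or 4 h. With it, Gpx4 and glutathione reductase (Gsr), which regenerates glutathione, were higher at 4 h and selenoprotein P (Selenop), a selenium carrier, was lower. In that fit 7.93% of all kept probe sets were called at 4 h, and 4.25% as higher. Gpx4 had 3442 and 4458 at 4 h, against 2039 and 2002 in control (log2 fold change 0.95 ± 0.26; limma adjusted p = 0.143, and 0.00701 with the block). Gsr had 504 and 963 at 4 h, against 291 and 392 in control (1.00 ± 0.39; limma adjusted p = 0.358, and 0.0245 with the block). Selenop had 80.0 and 299.6 at 4 h, against 207 and 735 in control (-1.20 ± 0.83; limma adjusted p = 0.657, and 0.0112 with the block).

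At 2 h Txnip, the inhibitor of thioredoxin, had 103 and 118, against 567 and 1874 in control (log2 fold change -3.01 ± 0.70; limma adjusted p = 0.141, and 9.72e-04 with the block). At 4 h its signals were 483 and 988, and the log2 difference from control was -0.57 ± 0.70 (limma adjusted p = 0.825, and 0.399 with the block). The 2 h arrays of Txnip lay below those of every other group. The median log2 fold change of the list at 4 h was 0.21, against -0.16 over all kept probe sets.

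Sources of superoxide and hydrogen peroxide were a list of 27 genes, with 9 on the array and 6 kept: Nox4, Cyba, Rac1, Maoa, Lox and Ero1b. None passed at any time in either fit, and their median log2 fold change at 4 h was -0.15, against -0.16 over all kept probe sets. Nox4, the NADPH oxidase that releases hydrogen peroxide, had the lowest value, -1.12 (limma adjusted p = 0.425, and 0.0810 with the block).

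The list of NRF2 targets and regulators other than the members held 33 genes, with 18 on the array and 17 kept. Without the block 1, 3 and 4 of the 17 were higher at 1 h, 2 h and 4 h, and with it 2, 4 and 12, with none lower. Of all 5877 kept probe sets, 0.493%, 0.783% and 0.953% were called higher at these times without the block, and 1.14%, 2.19% and 4.25% with it. The median log2 fold change at 4 h was 0.99, against -0.16 over all kept probe sets. Gclc, the catalytic subunit of glutathione synthesis, had 2838 and 4084 at 4 h, against 108 and 167 in control (log2 fold change 4.46 ± 0.28; limma adjusted p = 7.69e-04). Nqo1, a quinone reductase, had 10284 and 6713 at 4 h, against 271 and 391 in control (4.59 ± 0.34; limma adjusted p = 8.42e-04). Hmox1, which breaks down heme, changed by 4.64 ± 0.41 (limma adjusted p = 0.00190) and Taldo1, of the pentose phosphate pathway, by 1.35 (limma adjusted p = 0.0432). Each of these was also called with the block. With the block alone, Cbr1, a carbonyl reductase, was called at 2.01 (limma adjusted p = 0.00295, against 0.195 without it) and Gclm, the modifier subunit paired with Gclc, at 2.20 (limma adjusted p = 0.00708, against 0.0594), and so were Ephx1, Tkt, Gsta1, Gstp1, Gstm1 and Me1. The lists were written with earlier results of these data known, so their counts are a description.

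**Figure D3:**
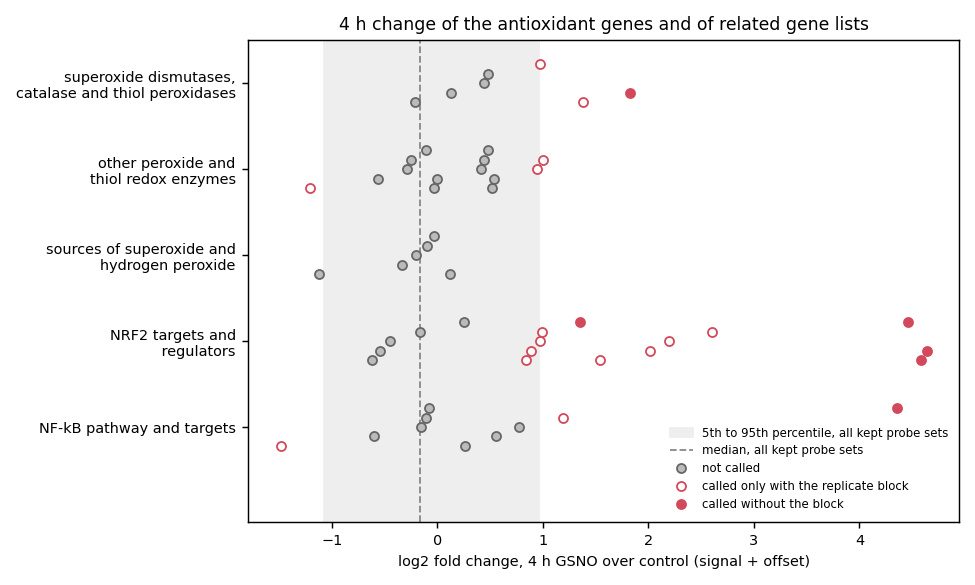
Log2 fold change of 4 h GSNO over control, 1 point per gene, by its kept probe set with the highest mean signal, for the antioxidant genes and 4 lists; the grey band spans the 5th to 95th percentile of all 5877 kept probe sets (-1.07 to 0.97) and the dashed line their median, -0.16. Filled red points were called without the replicate block, open red points with it alone. Among the plotted points the NRF2 list reaches 4.64 and the antioxidant genes 1.83. The Txnrd1 probe set that is not plotted, U63923_at, had 2.14.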

How the data were processed

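Biotin-labelled cRNA was hybridised to 8 Affymetrix rat U34 A-set arrays, per the labels' protocols, and the design text names GeneChip software 5.0 for the authors' data analysis. The deposited values are 1 intensity per probe set, already scaled to a common level by that software as far as the trimmed means of 500.7 to 501.0 (2% left out at each end) show; detection calls were not used here. The members and gene lists were chosen with earlier results of these data known. Gene names come from the platform annotation: 7018 probe sets had 1 symbol, 308 several and 1473 none.

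Signals plus 21.1 (the median over the arrays of the 20th percentile) were put on the log2 scale and fitted with limma 3.58.1 in R 4.3.3, with all 4 groups in 1 fit (4 residual degrees of freedom, 3 with the replicate block), a trend in eBayes and Benjamini-Hochberg adjustment over the 5877 kept probe sets. Each time was compared with control and with the other times. The code was tested on simulated data. The same-numbered arrays were taken as pairs because all 6 correlations of their deviations exceeded 0.1; the pairing comes from these values and the scan records, not from a stated design. For a list, each gene stands by its kept probe set with the highest mean; all members were named, and values are given for up to 6 genes of a list that passed in either fit, lowest p first (the uncalled Nox4 was named after its value was seen). Alternatives changed the offset, the filter, the scaling, the variance trend, the groups fitted, the block and the arrays left out. The number of arrays limits the precision. Start sites were read from RefSeq tables, not from the array. Pairs of arrays with identical values numbered 0.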

Additional observations from a re-analysis of the deposited data

Results flagged for a closer look

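In 7 calls, with the 2 fits counted apart, the response to GSNO differed between 2 exposure times by limma's test of the difference itself. The p-values are adjusted over 5877 probe sets. Sod2 (Y00497_s_at) was higher at 4 h than at 1 h by 1.83 on the log2 scale, both without the replicate block (adjusted p = 0.0407) and with it (adjusted p = 0.00312), and in 2 of 2 array numbers. With the block it was also higher at 4 h than at 2 h, by 1.54 (adjusted p = 0.0402), and with the experiment block that call was lost (adjusted p = 0.263). With the block, the 4 h values exceeded the 1 h values for Sod3 by 1.08 (Z24721_at, adjusted p = 0.0155) and 1.33 (X68041cds_s_at, adjusted p = 0.0102), and for Txnrd1 by 1.05 (rc_AA891286_at, adjusted p = 0.00452) and 1.58 (U63923_at, adjusted p = 8.62e-04). With the experiment block Z24721_at was not called at 4 h over 1 h (limma adjusted p = 0.0519), and the other calls at that comparison held. The 1 h array numbered 1 was alone in its chip lot. Without it, the block fit no longer called Z24721_at and rc_AA891286_at at 4 h over 1 h, and without the 1 h array numbered 2 it no longer called X68041cds_s_at; the other calls with the block at 4 h over 1 h held without either. Without the 4 h array numbered 1, Z24721_at was not called at 4 h over 1 h either.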

How the results depend on the processing

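Of the 28 alternatives for each value, Sod2 at 4 h was called in 23, with log2 fold changes of 1.61 to 2.05; without the block it was lost without either control array or either 4 h array and when only the groups compared were fitted. Called member probe sets at 4 h numbered 1, against 5 with the replicate block, also with the block under a common median scaling or quantile normalization, 3 with the experiment block, 2 with common median scaling and 0 with only the groups compared. The calls over all 5877 probe sets moved as well: 90 in the main fit and 466 with the replicate block. With the block they were 413 under common median scaling and 424 under quantile normalization. They were 165 with the experiment block, 103 with common median scaling and 63 with only the groups compared. At 4 h over 1 h the member count was 1, against 5 in the 3 fits with the replicate block, 4 with the experiment block and 0 without the filter, without the variance trend or with only the groups compared. Over all probe sets the calls there were 28, against 300, 275 (common median) and 268 (quantile) with the block and 201 with the experiment block. They were 26 of 8740 without the filter, 4 without the trend and 0 with only the groups compared. At 2 h the member count was 0, against 2 with the replicate block, with the experiment block and with the block and quantile normalization, and 1 with the block and common median scaling. The calls over all probe sets were 57, against 186, 152, 175 and 151 in these fits. At 4 h over 2 h the member count was 0, against 1 in each fit with the replicate block. All calls there were 0, against 32 with the block, 26 with common median scaling added and 23 with quantile normalization added. For any time, 67 of all probe sets were called, against 349, 337 (common median) and 325 (quantile) with the block and 192 with the experiment block. The calls were 64 of 8740 without the filter, 51 without the trend and 86 with quantile normalization. The member count for any time was 1, against 5 in each fit with the replicate block, 4 with the experiment block and 0 without the filter, without the trend or with quantile normalization. With an array left out and no block, the counts were 0 to 1 at 4 h and 0 at the other comparisons; with the block they were 3 to 5 at 4 h, at 4 h over 1 h and for any time, 1 to 2 at 2 h and 0 to 2 at 4 h over 2 h. The settings that join the block to another scaling, and the block fits with an array left out, were chosen after seeing the data. The cause of these changes was not tested, except that fewer samples or more probe sets enter some fits. The block changed no other member's call. The uncalled values that changed sign did so as follows. Sod2 at 1 h was 0.015 with common median scaling and 0.018 with quantile normalization, with and without the block; with an array left out it lay between -0.132 and 0.119, and with the block also at 0.0705 (without control replicate 1) and 0.018 (without the 1 h replicate 1). Sod1 M25157mRNA_i_at at 4 h was 0.176 with common median scaling, with and without the block, 0.526 with the experiment block, -0.771 to 0.690 with an array left out, and with the block 0.496 (without control 1) and 0.279 (without 4 h replicate 1). Cat rc_AA926149_g_at at 4 h was 0.0606 with common median scaling, with and without the block, -0.457 to 0.167 with an array left out, and 0.292 with the block and without 4 h replicate 1. Leaving out an array gave -0.996 to 0.571 for Cat M11670_at (0.210 with the block and without 4 h replicate 1), -0.0147 to 0.433 for Sod1 Y00404_s_at, -0.0199 to 0.283 for Gpx1 X12367cds_s_at and -0.781 to 0.261 for Gpx1 X07365_s_at (0.270 with the block and without 4 h replicate 2), all at 4 h. At 1 h it gave -0.559 to 0.350 for Sod3 Z24721_at (0.135 with the block and without 1 h replicate 1) and -0.466 to 0.113 for Sod3 X68041cds_s_at (0.188 with the block and without 1 h replicate 2), and at 2 h -0.252 to 0.525 for Z24721_at (-0.0150 with the block and without 2 h replicate 2).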

Other observations

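The NF-kB list, which holds genes often induced together with Sod2, had 27 genes, with 15 on the array and 10 kept. Il6, a cytokine, had 669 and 1057 at 4 h, against 26.6 and 15.8 in control. On the signal + offset scale its log2 difference was 3.85 ± 0.42 at 2 h and 4.36 ± 0.42 at 4 h (limma adjusted p = 0.00518 and 0.00229). Both control signals lay below the 20th percentile of their arrays (28.5 and 21.0). Il6 was thus kept through GSNO arrays alone, and the size of its change is not well measured. Nfkb1, the NF-kB subunit p50 precursor, had 2029 and 2425 at 2 h and 1875 and 2402 at 4 h, against 870.2 and 967 in control, and passed at both times with the replicate block alone (limma adjusted p = 0.00402 and 0.00383). Ptgs2, the inducible cyclooxygenase, had 851 and 626 at 1 h and 92.2 and 50.6 at 4 h, against 315 and 168 in control. At 4 h its log2 fold change was -1.48 ± 0.42 (limma adjusted p = 0.170, and 0.0351 with the block). Icam1, Vcam1, Ccl2, Nos2, Nfkbia, Il1b and Csf1 passed in neither fit at 4 h. The median of the list at 4 h was 0.10, against -0.16 over all kept probe sets. Sod2 parted from control at 4 h, whereas Il6 and Nfkb1 had passed by 2 h; the difference in timing between these genes was not tested.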
